A study of Arabidopsis thaliana with 4 samples.

Results

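The aliphatic glucosinolate genes described here are 10 loci of Arabidopsis thaliana, chosen by locus: BCAT4, MAM1 and MAM3 of methionine chain elongation, CYP79F1, CYP83A1 and SOT18 of the core structure, FMO GS-OX1 of the side chain, and the regulators MYB28, MYB29 and MYB76. They were found by locus identifier on 11 gene probes, of 37478 gene probes for 25665 loci on the array. All 10 passed the filter on dim probes, and all 11 probes were well above background for both genotypes on all 4 arrays, with 0 outlier flags and 0 saturated spots. The study compared shoot apices of the ron3 mutant with shoot apices of its control, the accession Ler, both grown in vitro ("LD" in the labels) to growth stage 1.02. The labels name no ron3 allele, no plant number and no harvest hour. Whether 2 arrays hold the same RNA is not given either. Each of 4 two-colour arrays (a to d) held RNA of both genotypes, with ron3 in Cy5 and Ler in Cy3 on arrays a and c, and the dyes swapped on b and d. The limma p-values come from a model with a dye effect, unless stated otherwise. They measure the spread between arrays of the same dye orientation, part of which may be technical. A difference between the orientations does not enter that spread.

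Aliphatic glucosinolates are sulfur-rich defence compounds of Arabidopsis and its relatives, made from methionine. Methionine is first lengthened by a cycle that BCAT4 starts and the MAM synthases carry on. CYP79 and CYP83 enzymes then turn the product into the core structure, which is conjugated with a sulfur donor, glucosylated and sulfated. Flavin monooxygenases and AOP dioxygenases modify the side chain, myrosinases break the compounds down when tissue is damaged, and MYB28, MYB29 and MYB76 activate the genes of synthesis together with MYC factors.

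The mutant gene and the tissue were checked first. RON3 is known as SICKLE (AT4G24500), a link that is background and not in the labels. It had a log2 ratio of ron3 over Ler of −2.30 ± 0.08 (SD, n = 4), with the 4 arrays between −2.41 and −2.21 (limma, adjusted p = 0.000148). Between 55.5% and 59.5% of gene probes were well above background in ron3, and between 54.2% and 57.0% in Ler. Of 6 shoot meristem markers, STM, KNAT1, KNAT6 and CLV1 were well above background for both genotypes on 4 of 4 arrays. CLV3 and WUS, which mark the centre of the meristem, were well above background on 0 arrays. In bulk tissue, fewer cells of a type and less RNA per cell cannot be told apart.

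All 3 core structure enzymes were higher in ron3, the chain elongation genes were split, and the MYB regulators moved in opposite directions. Of the 10 genes, 5 rose in ron3 (CYP79F1, CYP83A1, MAM3, SOT18 and MYB28), 2 fell (MYB29 and MYB76), and 3 did not pass the threshold (BCAT4, MAM1 and FMO GS-OX1). The test was limma with a dye effect for each probe, at an adjusted p below 0.05. By the same test 37.0% of the 19246 genes tested rose and 32.8% fell, 69.8% in all, so 7 changed of 10 is near the share of all genes. The median log2 ratio of the 10 genes was 0.24, against 0.02 for all genes tested, and that of the 7 enzymes was 0.52. Rises of at least 2-fold were seen for CYP79F1 and CYP83A1, a size that 6.02% of all genes tested reached, and falls of at least 2-fold for 0 of the 10, against 2.04% of all genes. The ratio had the same sign on all 4 arrays for 7 of the 10 genes, and for 74.1% of all genes. The share of all genes whose ron3 and Ler intensities do not overlap was not counted, so the separations given below have no background share.

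**Figure D1:**
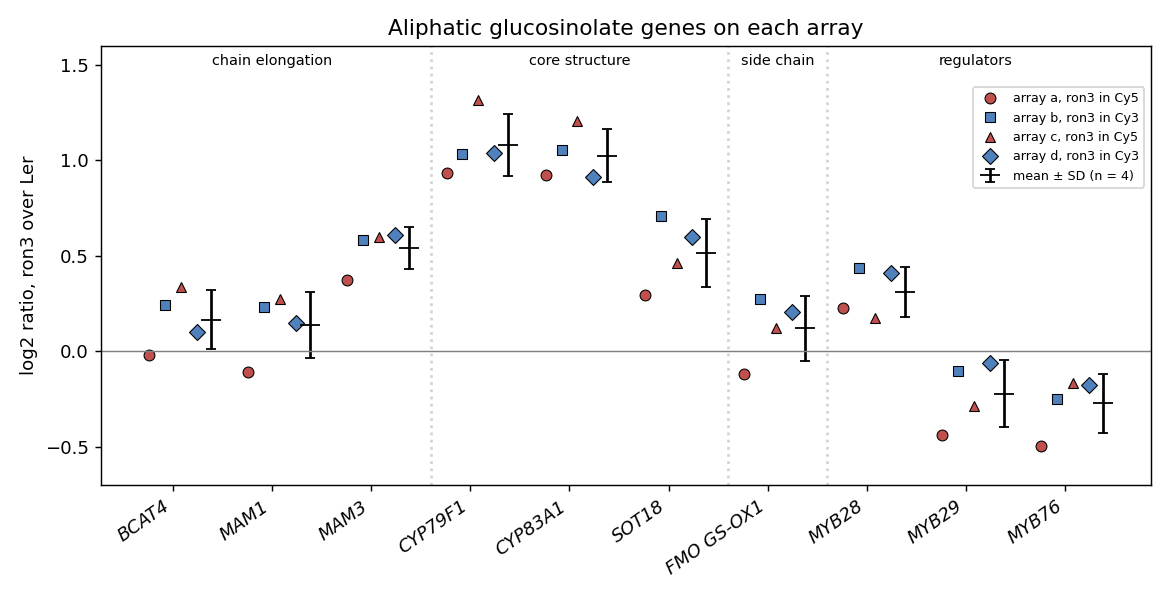
Log2 ratio of ron3 over Ler (y axis) for the 10 genes (x axis), with a point for each of the 4 arrays, coloured by the dye that carried ron3, and the mean ± SD (n = 4) beside them. CYP79F1 and CYP83A1 lie near 1 on every array, MYB29 and MYB76 lie below 0 on every array, and BCAT4, MAM1 and FMO GS-OX1 lie on both sides of 0.

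CYP79F1 (AT1G16410, chromosome 1) encodes the cytochrome P450 of the committed step, which turns chain-elongated methionine into an aldoxime. Its normalised intensity was 29951, 36819, 32163 and 33120 in ron3 on arrays a to d, against 15693, 17972, 12908 and 16119 in Ler. The lowest ron3 value thus lay far above the highest Ler value. The log2 ratio was 0.93, 1.03, 1.32 and 1.04 on arrays a to d, a mean of 1.08 ± 0.17 (SD, n = 4) or 2.12-fold (limma, adjusted p = 0.000543). Only 5.39% of all genes tested had a higher ratio.

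A second probe of CYP79F1 carries another transcript identifier of the gene than that of the first. Its intensity was 479, 415, 424 and 465 in ron3, against 165, 178, 150 and 167 in Ler on arrays a to d. Its log2 ratio was 1.43 ± 0.15 (SD, n = 4), or 2.70-fold, when every probe was given a row of its own (limma, adjusted p = 0.000188). That probe was dimmer and stood higher than the first probe on 4 of 4 arrays, by 0.35 ± 0.21 on the log2 scale (exact two-sided sign-flip test, p = 0.125, the smallest that 4 arrays allow). Whether it reads a separate transcript was not tested.

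CYP83A1 (AT4G13770, chromosome 4), the P450 that oxidises the aldoxime in the next step, showed nearly the same change. Its intensity was 41389, 43202, 40426 and 36324 in ron3, against 21817, 20835, 17495 and 19296 in Ler on arrays a to d. The groups did not overlap, and the log2 ratio was 1.02 ± 0.14 (SD, n = 4), or 2.03-fold (limma, adjusted p = 0.000465). CYP83A1 was the nearest of the other members to CYP79F1 in its values over the 4 arrays, with a root mean square difference of 0.084 on the log2 scale. By that measure 5 genes outside the pathway lists were nearer still, at 0.040 to 0.082: AT3G23570, AT4G18580, WRKY57, AT4G27657 and ANNAT1.

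SOT18 (AT1G74090, chromosome 1) encodes a sulfotransferase of the last core step. Its intensity was 17005, 20329, 16066 and 16988 in ron3, against 13875, 12430, 11654 and 11223 in Ler on arrays a to d. All ron3 values lay above all Ler values. The log2 ratio was 0.52 ± 0.18 (SD, n = 4), or 1.43-fold (limma, adjusted p = 0.00117), with 0.29 and 0.46 on the arrays with ron3 in Cy5 and 0.71 and 0.60 on those with ron3 in Cy3.

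Among the chain elongation genes, MAM3 rose while its neighbour MAM1 and the entry enzyme BCAT4 did not pass. MAM3 (AT5G23020, listed as IMS2 in the reference, chromosome 5), the synthase known for long side chains, had intensities of 15139, 16245, 16265 and 16173 in ron3, against 11676, 10862, 10743 and 10609 in Ler on arrays a to d. The groups were well apart, and the log2 ratio was 0.54 ± 0.11 (SD, n = 4), or 1.45-fold (limma, adjusted p = 0.00118).

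MAM1 (AT5G23010) adjoins MAM3 on chromosome 5 and encodes a synthase of short side chains. Its intensity was 17152, 20389, 19276 and 18881 in ron3, against 18522, 17333, 15967 and 17029 in Ler, so the groups overlapped. Its log2 ratio was 0.14 ± 0.17 (SD, n = 4), with a 95% confidence interval of −0.06 to 0.34 (limma, adjusted p = 0.167). The ratio of MAM3 exceeded that of MAM1 on 4 of 4 arrays, by 0.40 ± 0.08 on the log2 scale (exact two-sided sign-flip test, p = 0.125, again the smallest possible). Ler is known to carry MAM2, a close relative, in the place of MAM1, and the transcript that the MAM1 probe bound was not tested.

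BCAT4 (AT3G19710, chromosome 3), the aminotransferase that feeds methionine into the cycle, had intensities of 23347, 24939, 25707 and 22825 in ron3, against 23663, 21088, 20383 and 21255 in Ler on arrays a to d. Array a stood lower in ron3, unlike the others. The log2 ratio was 0.17 ± 0.16 (SD, n = 4; 95% confidence interval −0.03 to 0.36; limma, adjusted p = 0.104). Without array a both BCAT4 and MAM1 passed the threshold, at log2 ratios of 0.25 and 0.23 (limma, adjusted p = 0.0464 and 0.0483).

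FMO GS-OX1 (AT1G65860, chromosome 1), a monooxygenase that oxidises the sulfur of the side chain, did not pass. Its intensity was 2322, 2611, 2204 and 2431 in ron3, against 2522, 2157, 2028 and 2111 in Ler on arrays a to d, and the groups overlapped. The log2 ratio was 0.12 ± 0.17 (SD, n = 4; 95% confidence interval −0.03 to 0.27; limma, adjusted p = 0.113).

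The MYB regulators differed in direction. MYB28 (AT5G61420, chromosome 5), the main activator of the aliphatic branch, had intensities of 1497, 1709, 1348 and 1437 in ron3, against 1278, 1261, 1195 and 1082 in Ler on arrays a to d. All ron3 values lay above all Ler values, with a log2 ratio of 0.31 ± 0.13 (SD, n = 4), or 1.24-fold (limma, adjusted p = 0.00213). The ratio was 0.23 and 0.17 on the arrays with ron3 in Cy5, and 0.44 and 0.41 on those with ron3 in Cy3.

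MYB29 (AT5G07690), a second activator of the branch, had intensities of 378, 375, 370 and 518 in ron3, against 512, 403, 452 and 540 in Ler on arrays a to d. The groups overlapped, but ron3 was the lower on each array. The log2 ratio was −0.22 ± 0.17 (SD, n = 4; limma, adjusted p = 0.0106), with −0.44 and −0.29 where ron3 was in Cy5 and −0.10 and −0.06 where it was in Cy3.

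MYB76 (AT5G07700), an accessory activator that adjoins MYB29 on chromosome 5, was the dimmest of the genes' main probes. Its intensity was 155, 180, 161 and 197 in ron3, against 219, 214, 181 and 223 in Ler on arrays a to d, with the ron3 value of array d above the Ler value of array c. The log2 ratio was −0.27 ± 0.15 (SD, n = 4; limma, adjusted p = 0.0205). The ratio of MYB28 exceeded those of MYB29 and MYB76 on 4 of 4 arrays, by 0.54 ± 0.10 and 0.58 ± 0.17 on the log2 scale (exact two-sided sign-flip test, p = 0.125 for each).

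Whether these falls passed depended on the arrays used, and their size depended on the scaling. Without array a, neither MYB29 nor MYB76 passed (log2 ratios of −0.19 and −0.19; limma, adjusted p = 0.0740 and 0.0735), and without array b MYB76 did not (−0.25, adjusted p = 0.0507). On the arrays with ron3 in Cy3 alone the values were −0.08 and −0.21 (limma, adjusted p = 0.389 and 0.0838). With the ratio that the scanner software Feature Extraction had written, the falls were larger, at −0.43 and −0.64 (limma, adjusted p = 0.00336 and 0.00568). By that ratio 5 members again rose and 2 fell, beside 31.2% and 38.4% of all genes.

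**Figure D2:**
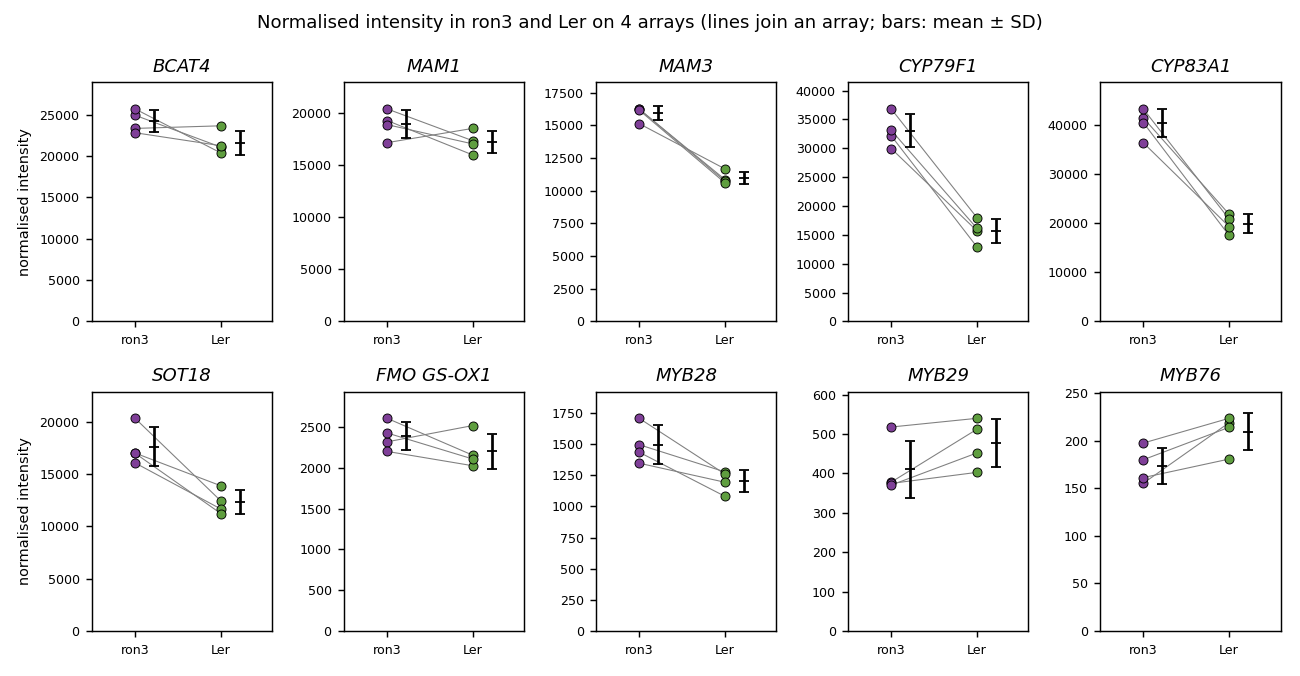
Normalised intensity (y axis, linear, from 0) of the 10 genes in ron3 and in Ler, with a line joining the pair of values of each array and the mean ± SD (n = 4) beside the points. The ron3 and Ler points of CYP79F1, CYP83A1, MAM3, SOT18 and MYB28 do not overlap, whereas those of the other genes do. The share of all genes tested without overlap was not counted. Heights cannot be compared between genes, since each has its own probe.

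A dye effect passed the threshold for 0 of the 10 genes (limma), and 3 of them, SOT18, MYB28 and MYB29, had an unadjusted p for it below 0.05 (0.0435, 0.0347 and 0.0294). Over all 19246 genes tested, 0 passed and 2208 had an unadjusted p below 0.05. In SOT18, FMO GS-OX1, MYB28 and MYB29 both arrays with ron3 in Cy3 gave a higher ratio than both arrays with ron3 in Cy5. The share of all genes with that order was not counted. Array a gave the lowest ratio for 8 of the 10 genes, where it did so for 23.8% of all genes tested. The part of array a in these results was not tested beyond the values given without it.

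The other genes of the pathway were taken from a list of 43, chosen with earlier results of these data known. Its counts, here and by step, are therefore no independent support. Of these genes 41 were tested: 29 rose, 5 fell and 7 did not pass (limma), against 37.0% and 32.8% of all genes. Their median log2 ratio was 0.47, with 0.34, 0.46, 0.56 and 0.48 on arrays a to d. In the core structure, with its 3 members counted, 11 of 12 genes rose and 1 fell, and the median was 0.74.

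GGP1, a peptidase that trims the glutathione conjugate, rose by 1.16 ± 0.20 on the log2 scale (SD, n = 4). CYP79F2, the close relative that adjoins CYP79F1 and acts on long chains, rose by 0.84 ± 0.14. UGT74B1 and UGT74C1, the glucosyltransferases, rose by 0.87 ± 0.21 and 0.38 ± 0.11. The sulfotransferases SOT17 and SOT16 rose by 0.75 ± 0.13 and 0.73 ± 0.15, and the C-S lyase SUR1 by 0.50 ± 0.19. Several of these enzymes, SOT16, SUR1, GGP1 and UGT74B1 among them, also serve indole glucosinolates.

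The glutathione transferases of the core parted. GSTU20 rose by 0.59 ± 0.30 (limma, adjusted p = 0.00148), and GSTF11 fell by 0.40 ± 0.10 on the log2 scale (SD, n = 4; limma, adjusted p = 0.00207), the 1 core gene lower in ron3. GSTF11 was lower on 4 of 4 arrays, between −0.53 and −0.28. APK1 and APK2, the kinases that make the activated sulfate used by the sulfotransferases, rose by 0.67 ± 0.17 and 0.74 ± 0.14.

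In chain elongation, with the members, 6 of 9 genes rose and 0 fell, with a median log2 ratio of 0.31, where 37.0% of all genes rose and 32.8% fell. The share called in either direction is near the 69.8% of all genes. IPMI2, a small subunit of the isomerase of the cycle, rose by 0.63 ± 0.10 (SD, n = 4), while IPMI1, another small subunit, stood at 0.12 ± 0.15 and did not pass (limma, adjusted p = 0.107). IMD1, the dehydrogenase of the cycle, rose by 0.47 ± 0.14, and BAT5, the plastid transporter of its intermediates, by 0.32 ± 0.17. IIL1 and BCAT3 rose by 0.31 ± 0.17 and 0.21 ± 0.11. IIL1 did not pass without array c (limma, adjusted p = 0.0561), nor BCAT3 without array a, b or c (limma, adjusted p = 0.0582, 0.0532 and 0.121). With ron3 in Cy5 only, BAT5, IIL1 and BCAT3 did not pass (limma, adjusted p = 0.0788, 0.0528 and 0.0767). BCAT3 did not pass with ron3 in Cy3 only either (limma, adjusted p = 0.0820).

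Among the side chain genes, 5 of 8 tested rose and 0 fell, beside 37.0% and 32.8% of all genes. AOP1, a relative of AOP2 and AOP3, had −0.19, −0.01, −0.19 and −0.02 on arrays a to d and did not pass (limma, adjusted p = 0.0542). It passed as lower in ron3 with no background correction (−0.11, limma, adjusted p = 0.0384), with the Feature Extraction ratio and the authors' deposited values (−0.13, adjusted p = 0.0408 for each) and with ron3 in Cy5 only (−0.19, adjusted p = 0.0343). It also passed with robust moderation (adjusted p = 0.0390) and with only probes well above background throughout (adjusted p = 0.0494). AOP3, the dioxygenase of hydroxyalkyl glucosinolates for which Ler is known, rose by 0.81 ± 0.20 (SD, n = 4), with a mean intensity of 38695 in ron3 and 22090 in Ler. AOP2, its neighbour, was well above background on 0 arrays for either genotype and was not tested, as was BZO1 with 1 array in ron3 and 0 in Ler. FMO GS-OX2, GS-OX3, GS-OX4 and GS-OX5 rose by 0.63, 0.45, 0.32 and 0.32 on the log2 scale, of which FMO GS-OX4 did not pass without array a or without array c (limma, adjusted p = 0.0970 and 0.0588). Nor did it pass with the Feature Extraction ratio or the authors' deposited values (limma, adjusted p = 0.0512 for each), nor with ron3 in Cy3 only (adjusted p = 0.144). FMO GS-OX2 exceeded FMO GS-OX1 on 4 of 4 arrays, by 0.51 ± 0.04. The transporters GTR1 and GTR2, which load glucosinolates into the phloem, rose by 0.40 ± 0.12 and 0.51 ± 0.14.

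Known partners and inhibitors of the MYB factors were higher in ron3. MYC4, MYC2 and MYC3, bHLH factors that bind the MYB proteins, rose by 1.29 ± 0.24, 0.70 ± 0.15 and 0.62 ± 0.11 on the log2 scale (SD, n = 4). SDI1, a protein induced by sulfur deficiency and known to restrain MYB28, had intensities of 7575, 7902, 6527 and 7232 in ron3, against 768, 544, 763 and 548 in Ler on arrays a to d. The groups lay far apart, and SDI1 rose by 3.49 ± 0.36, or 11.3-fold (limma, adjusted p = 0.000137). Only 0.369% of all genes tested had a higher ratio. Its relative SDI2 rose by 0.61 ± 0.21, and SLIM1, a regulator of the sulfur deficiency response, by 0.44 ± 0.07. IQD1, a calmodulin-binding protein, was called lower at −0.16 ± 0.22, with arrays between −0.40 and 0.05 (limma, adjusted p = 0.0197). It did not pass without array a, c or d. Nor did it pass with no dye effect in the model or with median centring (limma, adjusted p = 0.145 and 0.0563).

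Breakdown genes were split: of 8 tested, 1 rose, 3 fell and 4 did not pass, with a median log2 ratio of −0.09. Over all genes 37.0% rose and 32.8% fell, so the share of falls is near that of all genes. NSP5, a nitrile specifier protein, rose by 1.63 ± 0.17 (SD, n = 4), or 3.09-fold (limma, adjusted p = 0.000316). The myrosinases TGG1 and TGG2 fell by 0.41 ± 0.06 and 0.21 ± 0.12 on the log2 scale, TGG2 with an adjusted p of 0.0530 without array a and 0.0625 without array c (limma). With ron3 in Cy3 only, TGG2 stood at −0.11 and did not pass (limma, adjusted p = 0.283). ESM1, which shifts breakdown toward isothiocyanates, fell by 0.60 ± 0.12 (limma, adjusted p = 0.000730). ESP, the epithiospecifier, stood at 0.02 ± 0.40, with 0.06 and 0.58 on the arrays with ron3 in Cy5 and −0.27 and −0.28 on those with ron3 in Cy3. With ron3 in Cy3 only, a setting of 2 arrays, ESP passed as lower, at −0.28 (limma, adjusted p = 0.0452). FAMA, a marker of guard and myrosin cells, the cells that hold myrosinase, fell by 0.42 ± 0.06 alongside TGG1, with an intensity of 901 to 1166 in ron3 and 1234 to 1547 in Ler. Its part in that result was not tested.

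**Figure D3:**
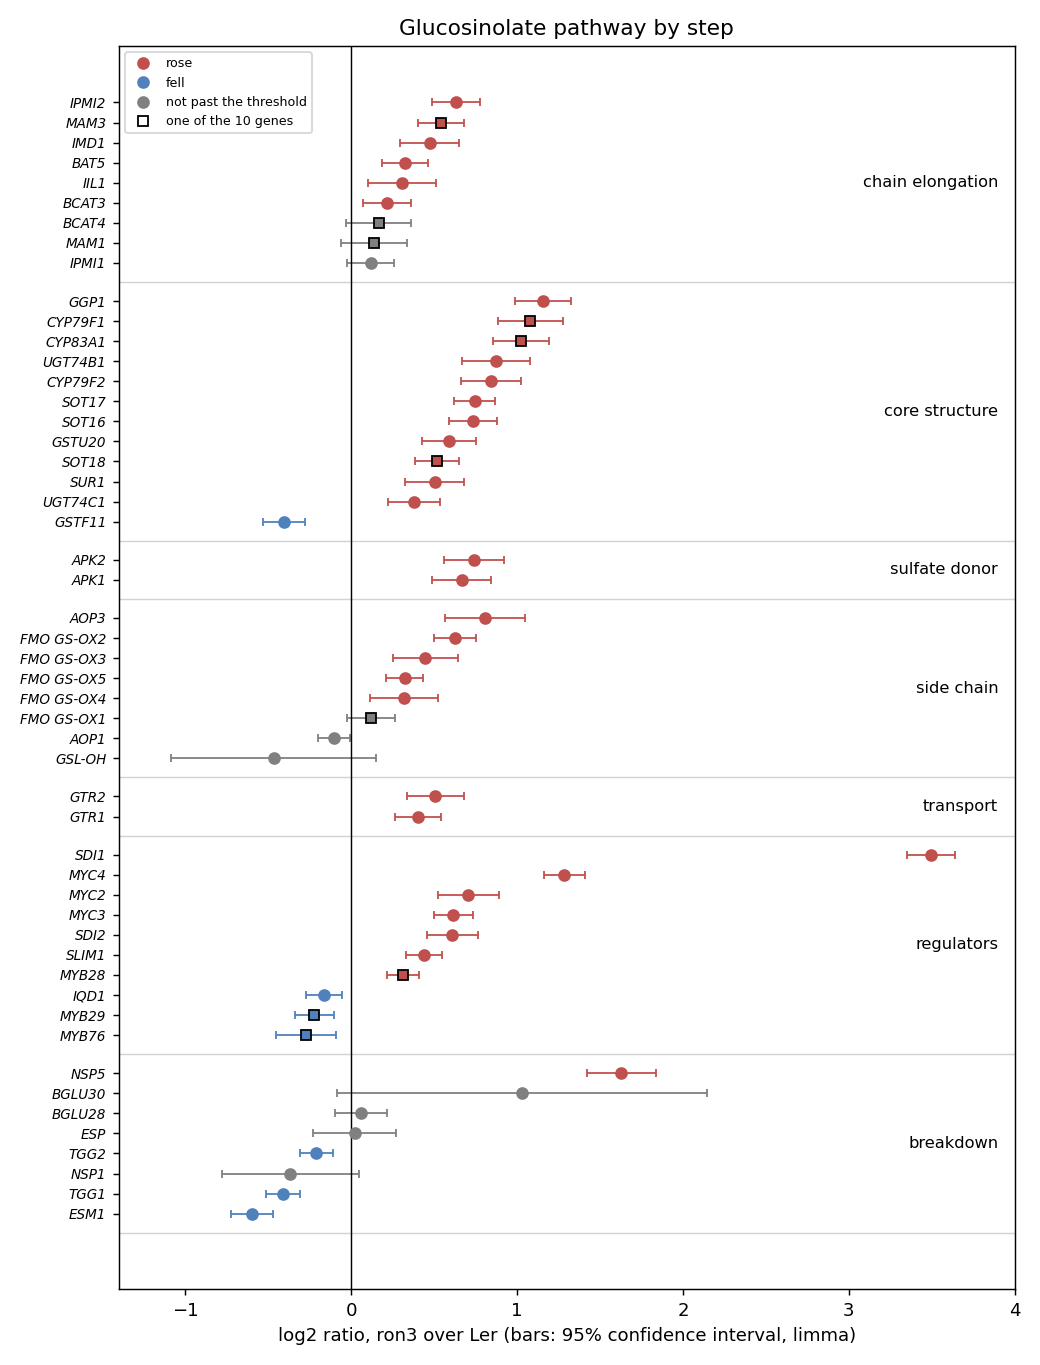
Log2 ratio of ron3 over Ler (x axis) with its 95% confidence interval from limma for the 51 tested genes of the pathway (y axis), grouped by step, with squares for the 10 genes and circles for the others. Core structure genes lie between −0.40 and 1.16 with 11 of 12 above 0, SDI1 stands alone at 3.49, and breakdown genes lie on both sides of 0.

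Markers of the shoot meristem and of other tissues differed too. STM, KNAT1 and KNAT6 rose by 0.40 ± 0.12, 0.33 ± 0.10 and 0.22 ± 0.14 on the log2 scale (SD, n = 4; limma, adjusted p = 0.00326, 0.00381 and 0.0376), and CLV1 fell by 0.15 ± 0.05 (adjusted p = 0.0268). The summed intensity of these 4 markers was 6828 to 7357 in ron3 and 7173 to 7964 in Ler. Most of that sum came from the CLV1 probe, with means of 5534 in ron3 and 6158 in Ler, so it does not follow the 3 markers that rose. Of 6 root markers, 5 were tested, and PLT1 was well above background on 0 arrays. IRT1, CASP1 and COBL9 rose by 1.43 ± 0.51, 0.72 ± 0.31 and 0.76 ± 0.39 (SD, n = 4), where 37.0% of all genes rose. RHD6 and EXPA7, of root hairs, were well above background in Ler on 0 arrays. They entered the test only through ron3, so their calls as rises are not set against that share. The summed intensity of the 5 markers, these 2 included, was 767 to 1407 in ron3 and 545 to 662 in Ler. The mean log2 ratio of the same 5 root markers was 0.85, 0.92, 0.91 and 0.26 on arrays a to d, lowest on array d. Of 4 vascular markers 0 rose and 2 fell, where 32.8% of all genes fell: XCP1 at −1.04 ± 0.33 and IRX3 at −0.57 ± 0.19 (SD, n = 4). APL and SUC2 did not pass, at 0.09 ± 0.11 and −0.06 ± 0.10 (limma, adjusted p = 0.104 and 0.380). The 4 vascular markers had a summed intensity of 14723 to 17037 in ron3 and 17606 to 19060 in Ler. Most of it came from the SUC2 probe, with means of 13604 in ron3 and 14149 in Ler. The part of tissue make-up in the pathway's changes was not tested. Probes of close relatives (MAM1 and MAM3, CYP79F1 and CYP79F2, the SOT genes, MYB29 and MYB76) may bind each other's transcripts, so their separate values are uncertain.

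**Figure D4:**
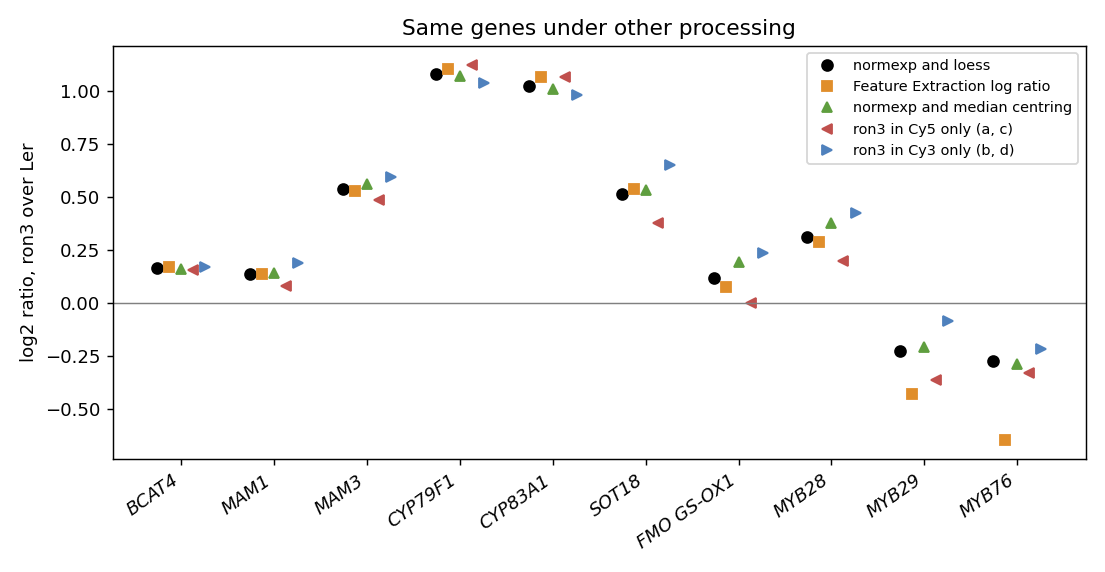
Log2 ratio of ron3 over Ler (y axis) of the 10 genes (x axis) from normexp and loess, from the Feature Extraction ratio, from median centring, and from the arrays of each dye orientation alone. CYP79F1 and CYP83A1 stay between 0.98 and 1.12 in these 5 settings, whereas MYB76 runs from −0.64 to −0.21.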

How the data were processed

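Each array file holds, per the file headers, median spot and background brightness (intensity), processed signals (intensity, background-subtracted, detrended and dye-normalised), a log10 ratio of Cy5 over Cy3, and flags of 0 or 1 (another kind of value), deposited as written by Agilent Feature Extraction 10.1.1.1. Per the labels' protocols, 1 µg RNA with 10 spike-in transcripts was amplified and labelled. The authors also deposited a value table of log2 ratios for 33441 probes. Its values, ron3 over Ler, equal ratios of the processed signals to within 5e-06 for probes with 1 spot. Its medians on arrays a to d were −0.01, −0.12, 0.01 and −0.17, so it is not centred. All arrays lay on 1 slide. The genome build is not given in the sources used here, so no coordinates are printed.

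Signals were corrected with normexp (offset 50) in limma 3.58.1 (R 4.3.3) and normalised by loess within arrays, with controls at weight 0. Repeated spots were averaged and flagged spots left out. A probe was kept if ron3 or Ler was well above background on 2 or more arrays, and if 3 or more arrays were unflagged. The brightest probe stood for a gene. A linear model with a dye effect per probe left 2 residual degrees of freedom (2.45 prior), with Benjamini-Hochberg adjustment over 19246 genes. Tests were two-sided. Normalised intensities are the loess values after Aquantile, a between-array step that leaves ratios as they are. The number of arrays limits the precision. The fit was also run on simulated data with independent noise on each array. RNA shared between arrays was not modelled there, and no result here rests on it. All 70 listed loci were found in the reference table of gene names. The genes named were the members, the listed pathway genes, RON3, the markers and the 5 genes nearest to CYP79F1. The members and lists were chosen with earlier results of these data known. Planned promoter motifs were not searched, since no sequences were used here.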

Additional observations from a re-analysis of the deposited data

Results flagged for a closer look

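Among the 52 genes examined array by array (the 10 genes, the other pathway genes tested and RON3), 3 had 1 array far from the others by Dixon's ratio, which chance gives in about 1 of 20 groups, and in each it was array a. MAM3 had a log2 ratio of 0.37 on array a, against 0.58 to 0.61 on the others. SLIM1 had 0.34 on array a, against 0.46 to 0.48, and APK1 had 0.41, against 0.74 to 0.77. Without array a, MAM3 still rose, at 0.60 (limma, adjusted p = 0.00674).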

How the results depend on the processing

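Over 17 alternatives for each gene, CYP79F1, CYP83A1, MAM3, SOT18 and MYB28 kept their direction and stayed past the threshold, with log2 ratios of 0.98 to 1.26, 0.95 to 1.095, 0.48 to 0.60, 0.38 to 0.65 and 0.20 to 0.42 (limma, highest adjusted p = 0.0325). The highest value of CYP79F1 came from the mean of its probes. No member turned its direction. Several alternatives could not turn one, since they keep the log2 ratio as it is: no dye effect, Aquantile, the other filters, robust moderation and the averaged arrays. The authors' deposited values also nearly repeat the Feature Extraction ratio, so the 17 are not separate checks. MYB29 ran from −0.43 to −0.08 and MYB76 from −0.64 to −0.19. BCAT4 also passed with arrays a and b and arrays c and d averaged (adjusted p = 0.0461), a pairing that the labels do not give. With ron3 in Cy3 only, 0 members fell, and over all genes 4417 rose and 4154 fell, against 7124 and 6311 with all arrays; that setting has 2 arrays. With median centring 6 members had a dye effect past the threshold. How many of all genes had one in that setting was not counted, so the members cannot be set against a background. With 1 array left out, 5 to 7 members rose and 0 to 2 fell (0 without array a, 1 without array b). Of the other pathway genes 26 to 30 rose and 3 to 7 fell (3 without array a and 3 without array c). Over all genes tested, 5237 to 7033 rose and 4689 to 6211 fell with 1 array left out, fewer than with all arrays. Directions turned only for ESP (−0.015 with no background correction, −0.060 with median centring, −0.28 with ron3 in Cy3 only, −0.11 to 0.15 with 1 array left out), BGLU28 (−0.038 with the Feature Extraction ratio and with the authors' values, −0.0060 to 0.13 with 1 array left out) and IQD1 (0.026 with ron3 in Cy5 only); the cause was not tested. Giving every probe its own row of the fit, an alternative chosen after seeing the data, left the counts at 5 and 2. Every ratio pairs ron3 with Ler within its array, in all settings; the labels give no further number that pairs arrays, so no replicate block could be added. Dim probes such as MYB76 limit what these arrays show.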

Other observations

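Some breakdown and side chain genes had arrays that lay far apart. BGLU30, a beta-glucosidase known from sulfur starvation and darkness, had log2 ratios of 1.11, −0.31, 1.15 and 2.18 on arrays a to d, with Ler well above background on 3 of 4 arrays. GSL-OH, a dioxygenase of the side chain, had −0.96, 0.12, −0.09 and −0.94, and NSP1, a nitrile specifier protein, had −0.40, −0.08, −0.06 and −0.91. With all arrays and a dye effect none of these 3 genes passed the threshold (limma, adjusted p = 0.0833, 0.135 and 0.0926). BGLU30 passed with no dye effect in the model (adjusted p = 0.0413), and GSL-OH and NSP1 with arrays a and b and arrays c and d averaged (adjusted p = 0.00355 and 0.0202). The labels do not give that pairing. Each average joins arrays that lay apart, as −0.96 with 0.12 in GSL-OH, so these 2 p-values do not measure the spread between the 4 arrays. Without array b all 3 genes passed, at 1.65, −0.73 and −0.57 (limma, adjusted p = 0.000146, 0.0256 and 0.00488), and BGLU30 also passed without array d, at 0.41 (adjusted p = 0.00249). In these fits the dye effect takes up the array left alone in its orientation, d or b. Their p-values therefore measure only the spread between arrays a and c. For BGLU30 those were 1.11 and 1.15, while array b, at −0.31, did not enter the spread.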
